A study of Mus musculus with 7 samples.

Results

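The adult globin genes of the mouse were examined in RNA-Seq libraries of knee cartilage after joint surgery. They were chosen by name: every row of the gene count table whose symbol was exactly Hba-a1, Hba-a2, Hbb-bs, Hbb-bt, or Ahsp. Of these 5 names, 4 matched a row among the 55401 genes of the table, 1 row each, and all 4 passed the filter on low counts. The alpha-globin chaperone Ahsp was not analysed here.

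Hemoglobin, the oxygen carrier of red blood cells, is built from alpha-globin and beta-globin chains, each of which holds a heme group. Hba-a1 and Hba-a2 encode the adult alpha chain, and Hbb-bs and Hbb-bt encode the adult beta chain of mice such as C57BL/6. These genes are transcribed in erythroblasts of the marrow, and their mRNA persists in reticulocytes after the nucleus is lost. Cells balance the alpha and beta chains, because unpaired alpha chains precipitate. Cartilage has no vessels of its own, whereas subchondral bone beneath it holds marrow and blood.

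The study compared WT and Trpc1-/- mice, to learn how loss of the calcium channel TRPC1 alters cartilage early in osteoarthritis. All mice of both genotypes were C57BL/6J males aged 10 weeks when the right knee received DMM, a surgical destabilization of the medial meniscus, and tissue was taken 2 weeks later. The knockout allele, Trpc1 tm1Lbi, lacks exon 8 in all tissues rather than in chondrocytes alone, and each sample pooled 2 to 3 knees, so that a sample is a pool and not 1 animal. By the labels, there were 4 WT and 3 Trpc1-/- samples of femoral and tibial cartilage, while the Methods give 3 and 4 and also list subchondral bone. The groups follow the labels. With these groups, the study's test, DESeq2, gave log2 fold changes of 0.396 for Fech and 0.439 for Rhag, the values that the study lists. The DESeq2 calls on all 7 samples given here therefore repeat the study's own fit. Every sample had undergone DMM, and no sham or unoperated sample was analysed here.

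The counts on genes summed to between 52142451 and 118254070 per sample, with the lowest in WT replicate 1. That sample also stood apart in its composition: genes of the mitochondrial genome took 22.5% of its counts and between 14.2% and 17.6% in the other 6 samples. Trpc1 itself had 4.39, 4.82, 5.02, and 4.52 CPM, counts scaled to the library total, in WT replicates 1 to 4 and 3.47, 3.71, and 2.79 CPM in Trpc1-/- replicates 1 to 3. Every Trpc1-/- sample thus lay below every WT sample. These counts cover the whole gene, so they do not check the deletion of a single exon. Of the labelled tissue, 10 chondrocyte markers, among them Acan and Col2a1, were all detected, which does not check its purity. All 10 had a lower mean in Trpc1-/- samples, at a median log2 fold change (logFC) of Trpc1-/- over WT of −0.45. DESeq2, described further on, called 1 of them, Chad (logFC −0.74, adjusted P = 0.00267). Over all 16429 genes tested, 8525 had a logFC below 0, and DESeq2 called 1.79%. Marrow genes were also present, those of neutrophils at a higher level. Mean log2 CPM, scaled by TMM as explained further on, lay between 8.43 and 9.91 for the 10 neutrophil markers. For the chondrocyte markers it lay between 6.60 and 7.52. Mean levels were lower for B cell (4.23 to 5.11), T cell (0.04 to 1.26), macrophage (5.76 to 6.58), and megakaryocyte markers (5.08 to 5.78). These levels do not measure the share of each tissue. The neutrophil markers had a median logFC of 0.11, which was −0.13 without WT replicate 1.

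The paralogs within each pair are close to identical, which matters for how their reads can be told apart. Hba-a1 (ENSMUSG00000069919) lies at chr11:32283511-32284465 and Hba-a2 (ENSMUSG00000069917) at chr11:32296489-32297298, both on the plus strand of GRCm38. Hbb-bs lies at chr7:103826534-103828096 and Hbb-bt at chr7:103812524-103813996, both on the minus strand. In the GENCODE M21 annotation, each gene has 3 exons. The coding sequences of Hba-a1 and Hba-a2 are 429 bases long and differ at 1 base, and those of Hbb-bs and Hbb-bt are 444 bases long and differ at 1 base. The 60 coding bases around the difference are shown for each gene, 5′ to 3′ on the strand of the gene, with the differing base in capitals. The alpha stretch is at chr11:32284313-32284372 for Hba-a1 and chr11:32297130-32297189 for Hba-a2, and the beta stretch is at chr7:103826665-103826724 for Hbb-bs and chr7:103812656-103812715 for Hbb-bt, all in exon 3.
Hba-a1: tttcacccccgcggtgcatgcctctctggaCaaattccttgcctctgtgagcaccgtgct
Hba-a2: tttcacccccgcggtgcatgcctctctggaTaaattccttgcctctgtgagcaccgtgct
Hbb-bs: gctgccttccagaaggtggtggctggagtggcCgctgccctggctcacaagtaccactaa
Hbb-bt: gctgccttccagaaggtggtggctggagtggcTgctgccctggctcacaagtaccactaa

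Reads of 75 bases were sequenced from both ends of each fragment. Of the 75-base windows of the annotated transcript, 62.2% of those in Hba-a1 and 81.0% of those in Hba-a2 also occur in the other gene of the pair. For Hbb-bs and Hbb-bt, these shares are 64.3% and 56.6%. Within the coding sequence alone, 86.2% of the alpha windows and 92.4% of the beta windows are shared. The division of counts between the genes of a pair is therefore uncertain, and each pair was also tested as a sum that does not depend on that division.

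The stretches upstream of the genes differ more between the beta pair than between the alpha pair. They are shown as sequence only, and a link to the counts was not tested. Of 250 bases before the RefSeq start site, 247 could be aligned between Hba-a1 and Hba-a2, and all 247 were identical. Between Hbb-bs and Hbb-bt, 239 could be aligned and 185, or 77.4%, were identical. The 150 bases before the start, from the RefSeq table of GRCm38.p6, are printed once for the alpha pair, from Hba-a2 (chr11:32296342-32296491, plus strand), and for Hbb-bs (chr7:103827929-103828078) and Hbb-bt (chr7:103813924-103814073) on the minus strand. Capitals mark matches to CCAAT and CACCC on either strand (the first reads ATTGG on the other strand) and to the TATA box motif ATATAA on the strand of the gene. In Hbb-bt, matches to CCAAT on both strands adjoin in 1 run.
Hba-a2: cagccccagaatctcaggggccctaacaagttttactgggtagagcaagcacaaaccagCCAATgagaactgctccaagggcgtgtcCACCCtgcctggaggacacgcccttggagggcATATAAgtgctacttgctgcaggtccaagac
Hbb-bs: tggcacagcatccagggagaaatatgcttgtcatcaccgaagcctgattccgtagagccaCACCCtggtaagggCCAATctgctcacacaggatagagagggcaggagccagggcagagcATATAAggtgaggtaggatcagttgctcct
Hbb-bt: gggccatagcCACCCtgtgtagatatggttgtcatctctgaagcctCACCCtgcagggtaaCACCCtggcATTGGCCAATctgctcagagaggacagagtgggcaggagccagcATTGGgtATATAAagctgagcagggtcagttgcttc

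All 4 genes held at least 1 match to each of these 3 motifs in the 150 bases, with ATATAA beginning 28 to 31 bases before the start. Over 27025 promoters of the same length, CCAAT was found in 25.3%, CACCC in 36.9%, and ATATAA in 3.63%, and the 3 occurred together in 80 promoters, or 0.296%. GATAA, which occurred on either strand in 13.6% of promoters, had no match in these windows. The joint share leaves GATAA out and counts only the 3 motifs that matched, so its size follows from that choice and tests nothing. A match describes the letters only.

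The adult globins were among the most abundant transcripts of these samples. Together the 4 genes took 1.53%, 3.16%, 3.53%, and 2.81% of all counts in WT replicates 1 to 4, and 4.43%, 3.79%, and 4.95% in Trpc1-/- replicates 1 to 3. The lowest share in Trpc1-/- samples lay above the highest in WT. With genes of the mitochondrial genome left out of the total, the shares were 1.97% to 4.12% in WT and 4.59% to 6.01% in Trpc1-/- samples, again without overlap. By count per exonic base, Hbb-bs ranked between 5 and 12 among all genes in a sample, and Hbb-bt, the lowest of the 4, between 11 and 22. In bulk tissue such as this, fewer cells of a type and less RNA per cell cannot be told apart.

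Compared per 1000 exonic bases, the level in CPM was highest for Hbb-bs and lowest for Hbb-bt in every sample. In WT it was 13297 ± 4229 for Hbb-bs (SD, n = 4), 9036 ± 2839 for Hba-a2, 8495 ± 2779 for Hba-a1, and 6328 ± 1907 for Hbb-bt. Over the 4 WT samples, the ranges of neighbours in this order overlapped. Within a sample, the order was the same in all 7: Hbb-bs was 1.40 to 1.57 times Hba-a2, Hba-a2 was 1.04 to 1.11 times Hba-a1, and Hba-a1 was 1.26 to 1.40 times Hbb-bt. The second of these steps is small beside the share of sequence that the alpha genes have in common.

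Each gene was then compared between the genotypes with counts scaled by TMM, edgeR's correction for composition. Hba-a1 had 4129, 7538, 8498, and 6561 CPM in WT replicates 1 to 4, and 10294, 9463, and 13186 CPM in Trpc1-/- replicates 1 to 3. WT replicate 1 was the lowest of the 7 samples and Trpc1-/- replicate 3 the highest. The lowest Trpc1-/- sample was 1.11 times the highest WT sample. Its logFC came to 0.72 (SE 0.26). By the quasi-likelihood test of edgeR, with Benjamini-Hochberg adjustment over 16429 genes, the adjusted P was 0.458.

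Hba-a2, the other alpha gene, had 3774, 6565, 7406, and 5627 CPM in WT and 9407, 8453, and 11681 CPM in Trpc1-/- replicates. The samples took the same order as for Hba-a1, and the groups did not overlap. Its logFC was 0.75 (SE 0.25, edgeR adjusted P = 0.433).

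Hbb-bs, the more abundant beta gene, had 6082, 11029, 12277, and 10179 CPM in WT and 15919, 14411, and 20342 CPM in Trpc1-/- replicates. Again, WT replicate 1 was lowest and Trpc1-/- replicate 3 highest. The logFC was 0.77 (SE 0.27, edgeR adjusted P = 0.449).

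Hbb-bt, the other beta gene, had 2763, 4668, 5321, and 4501 CPM in WT and 7079, 6400, and 8614 CPM in Trpc1-/- replicates. The lowest Trpc1-/- sample was 1.20 times the highest WT sample, the widest gap of the 4 genes. The logFC was 0.77 (SE 0.24, edgeR adjusted P = 0.410).

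**Figure D1:**
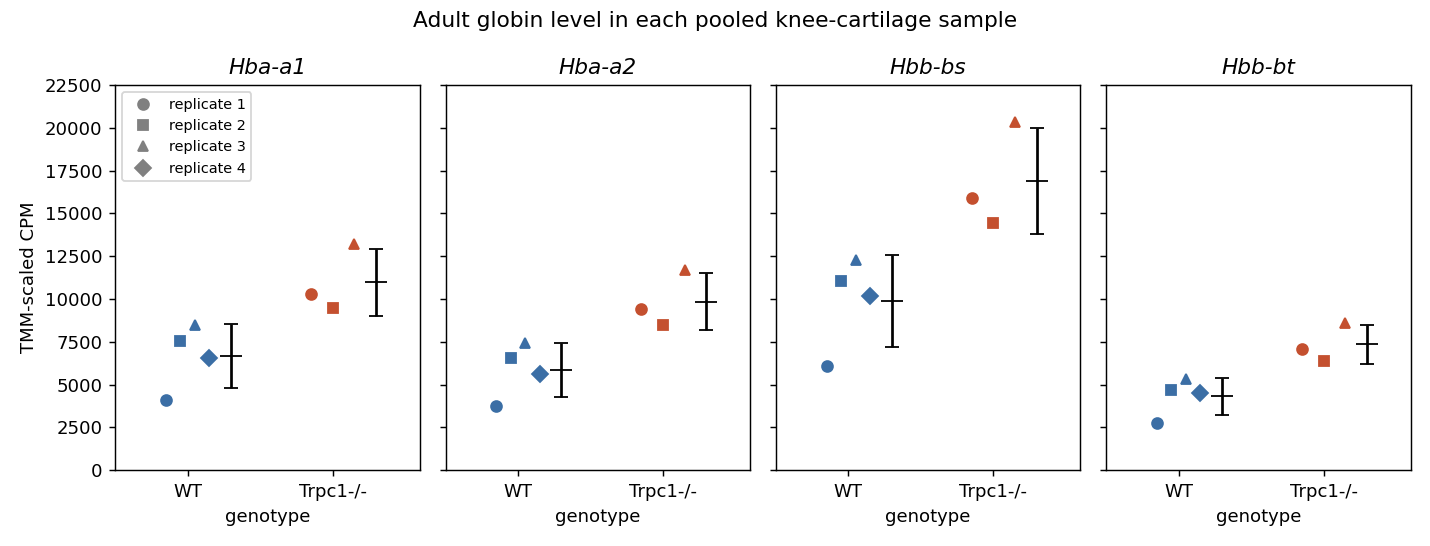
TMM-scaled CPM (vertical axis) of the 4 adult globin genes in WT (blue) and Trpc1-/- (orange) samples, 1 panel per gene, with a symbol for each replicate and a bar for the mean ± SD. For each gene, all 3 Trpc1-/- samples sit above all 4 WT samples, with WT replicate 1 lowest and Trpc1-/- replicate 3 highest.

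For all 4 genes, the lowest Trpc1-/- sample thus lay above the highest WT sample, and none passed the edgeR test after adjustment. Over all genes tested, edgeR called 0.00% at an adjusted P under 0.05, with 1643 genes at an unadjusted P under 0.05. The unadjusted P of the 4 globin genes lay between 0.0127 and 0.0273, and 4.51% of all genes were higher in Trpc1-/- samples with an unadjusted P under 0.05. Groups that did not overlap, with Trpc1-/- higher, were found for 7.15% of all genes. The 4 logFC values lay at the 99.3rd to 99.4th percentile of all genes, whose median logFC was −0.0088. Since paralogs share sequence and all 4 genes share their cells, these are not 4 independent results.

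DESeq2, the test that the study used, called 1.79% of the genes tested, and 1 of the 4 globin genes, Hbb-bt (adjusted P = 0.0346). The adjusted P of DESeq2 was 0.0980 for Hba-a1, 0.0527 for Hba-a2, and 0.0596 for Hbb-bs. The call of Hbb-bt was lost when any of WT replicates 2 and 4 and Trpc1-/- replicates 1 and 3 was left out, with an adjusted P of up to 0.530. DESeq2 called all 4 genes without WT replicate 1, where the adjusted P lay between 3.71e-05 and 0.00352, and also without WT replicate 3. Over all genes tested, DESeq2 called 892 of 16242 without WT replicate 1 and 134 of 16345 without WT replicate 3. With edgeR, 52 of 16242 were called without WT replicate 1. Leaving out WT replicate 1 thus lowered both the logFC, to between 0.54 and 0.61 in edgeR, and the spread within WT.

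Summed over each pair, alpha-globin had 12524 ± 3435 CPM across 4 WT samples and 20829 ± 3611 CPM across 3 Trpc1-/- samples (mean ± SD). Beta-globin had 14204 ± 3773 and 24256 ± 4216 CPM. The logFC was 0.73 (SE 0.27, edgeR adjusted P = 0.455) for alpha-globin and 0.77 (SE 0.27, edgeR adjusted P = 0.449) for beta-globin, which corresponds to a fold change of 1.66 and 1.71. Leaving out each sample in turn gave a logFC between 0.56 and 0.87 for alpha-globin and between 0.60 and 0.89 for beta-globin. It was lowest without WT replicate 1 and next lowest without Trpc1-/- replicate 3, the samples at the ends of the range. The labels also give each library a code that holds a number, whose meaning they do not state. These numbers fall in 2 ranges, a lower one for the Trpc1-/- samples and WT replicates 1 and 2, and a higher one for WT replicates 3 and 4. With the lower numbers alone, the logFC was 0.92 for alpha-globin and 0.98 for beta-globin (edgeR adjusted P = 0.374 for both). The higher numbers belong to WT samples only and give no value.

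**Figure D2:**
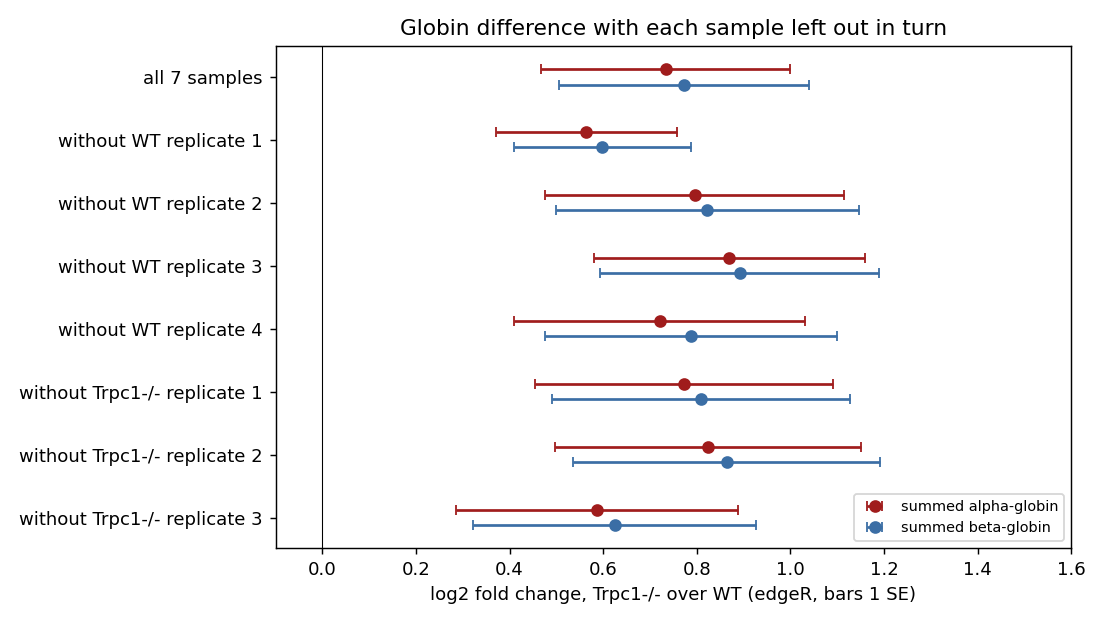
edgeR logFC (horizontal axis, Trpc1-/- over WT, bars 1 SE) of summed alpha-globin (red) and summed beta-globin (blue), with all 7 samples and with each left out in turn. Every value is above 0, from 0.56 to 0.89, and the lowest pair is without WT replicate 1.

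The balance between the chains was compared as the ratio of summed alpha-globin to summed beta-globin counts in each sample, which needs no normalization. It was 0.894, 0.898, 0.904, and 0.830 in WT replicates 1 to 4, and 0.857, 0.861, and 0.859 in Trpc1-/- replicates 1 to 3. The Trpc1-/- samples fell between WT replicate 4 and the other 3 WT samples, so the groups overlapped. Taken per exonic base, the ratio lay between 0.840 and 0.916 over the 7 samples. On the log2 scale, the difference of Trpc1-/- minus WT was −0.037, with an SD of 0.057 in WT and 0.0036 in Trpc1-/- samples. The two-sided exact permutation test, over 35 assignments of the genotypes, gave P = 0.229, and the smallest P it can give is 0.0571. Without WT replicate 4, the difference was −0.065 (exact permutation P = 0.100, the smallest possible for 3 against 3), and all 3 Trpc1-/- samples lay below the 3 remaining WT samples.

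The share of each paralog in its pair was also much the same from sample to sample. This share rests in part on how reads common to both genes were assigned, so the ratio tests cannot settle the true division. Hba-a2 made up between 46.2% and 47.8% of the alpha counts, and Hbb-bt made up between 29.7% and 31.2% of the beta counts. The log2 ratio of Hba-a2 to Hba-a1 differed by 0.031 between the genotypes (exact permutation P = 0.343), and that of Hbb-bt to Hbb-bs by −0.0027 (exact permutation P = 0.971). In both, the groups overlapped. Without WT replicate 1, the first difference was 0.051 (exact permutation P = 0.100, the smallest possible for 3 against 3), and all 3 Trpc1-/- samples lay above the 3 remaining WT samples. The second ratio changed sign when some samples were left out, with values between −0.019 and 0.021. With Benjamini-Hochberg adjustment over the 5 ratios tested, no P was below 0.381.

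**Figure D3:**
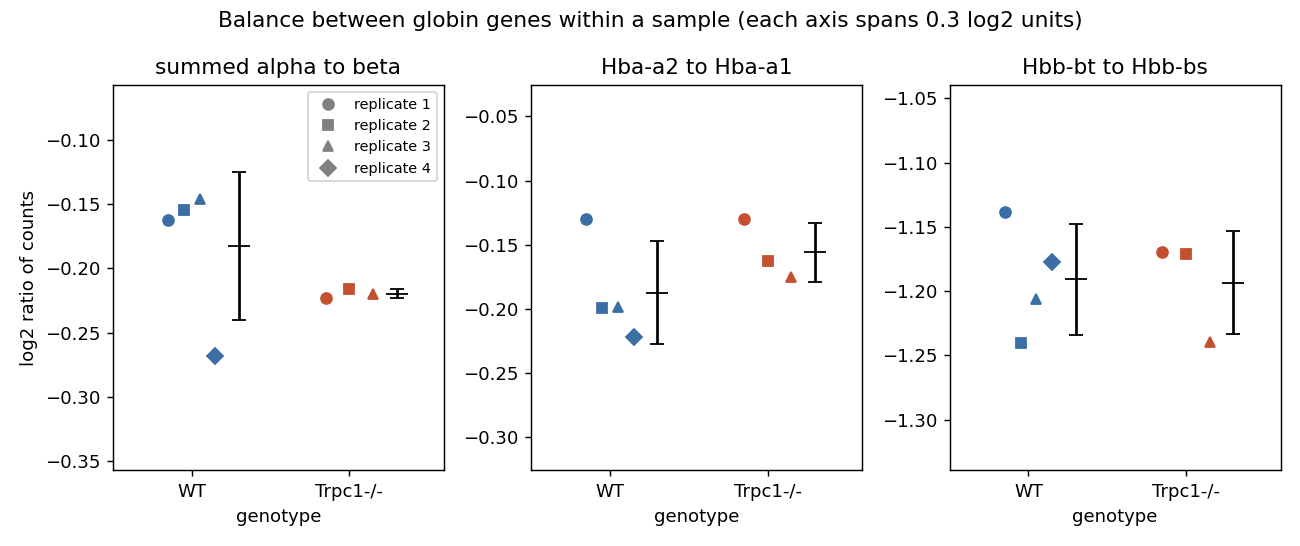
Log2 ratio of counts (vertical axis, each panel spanning 0.3 log2 units) of summed alpha-globin to beta-globin, Hba-a2 to Hba-a1, and Hbb-bt to Hbb-bs in WT (blue) and Trpc1-/- (orange) samples, with the mean ± SD. The groups overlap in each panel, and WT replicate 4 is the lowest sample in the alpha to beta panel.

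The globins were next set beside other genes of red cells within the same libraries. The reference was a list of 15 genes of the red cell membrane and its skeleton, such as Slc4a1, the anion exchanger band 3. The globins differed from this list in how they varied within WT: log2 alpha-globin relative to the list was 5.52 in WT replicate 1, 6.43, 6.64, and 6.27 in WT replicates 2 to 4, and 6.48, 6.59, and 6.96 in Trpc1-/- replicates 1 to 3. The difference between the genotypes was 0.46 for alpha-globin (exact permutation P = 0.229) and 0.50 for beta-globin (exact permutation P = 0.114). Without WT replicate 1, these were 0.23 and 0.26 and the groups still overlapped. Relative to a list of 8 genes of heme synthesis, the differences were 0.41 and 0.45 (exact permutation P = 0.114 for both).

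WT replicate 1 was low in short transcripts as a class. The 4 globin genes have between 667 and 812 exonic bases, whereas the median of the membrane list was 5297 bases. Among protein-coding genes with a mean of at least 10 CPM, the 177 with fewer than 1000 exonic bases had a median deviation in WT replicate 1 of −0.71 on the log2 scale from their mean over the samples. This deviation was −0.48 for 678 genes of 1000 to 2000 bases, −0.25 for 2483 genes of 2000 to 4000 bases, and 0.053 for 5997 longer genes. In the same sample, summed globin counts deviated by −0.97. The short genes had a median logFC between the genotypes of 0.26, which was 0.13 without WT replicate 1, and 154 of them, or 87.0%, were higher in Trpc1-/- samples.

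With these 177 short genes as the reference, a choice made after the data were seen, WT replicate 1 no longer stood apart. Log2 alpha-globin relative to the short genes was 7.94, 7.82, 8.08, and 7.70 in WT replicates 1 to 4, and 8.36, 8.54, and 8.65 in Trpc1-/- replicates 1 to 3. For beta-globin the values were 8.10, 7.97, 8.22, and 7.97 in WT and 8.58, 8.75, and 8.87 in Trpc1-/- samples. The groups did not overlap, and the differences were 0.63 and 0.67 (exact permutation P = 0.0571 for both, the smallest possible). The part that transcript length had in the globin difference was not tested.

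**Figure D4:**
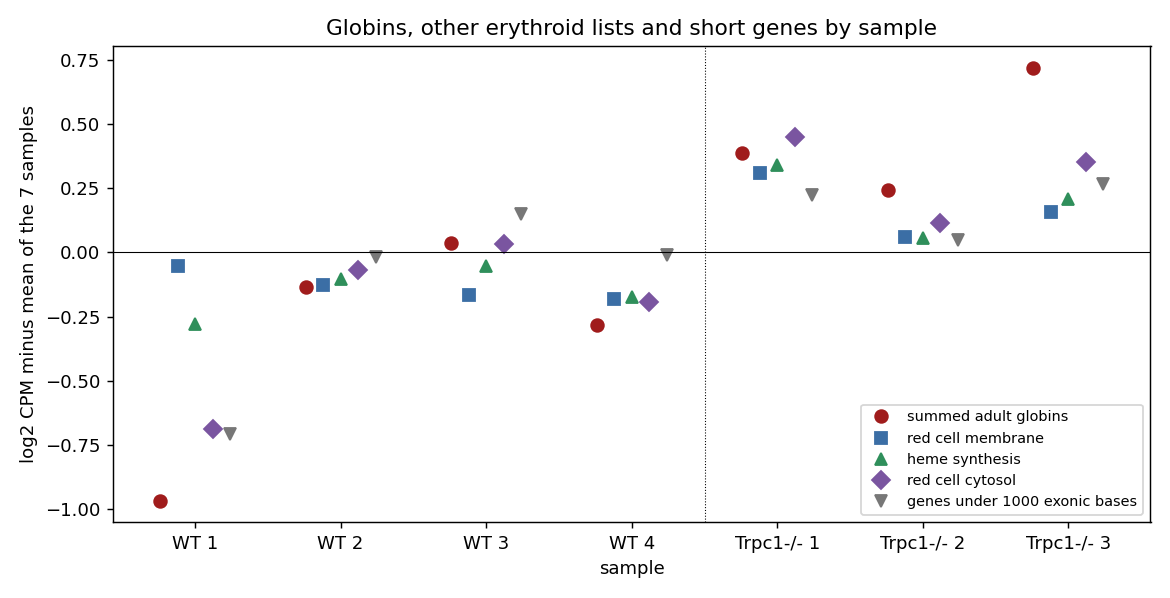
Log2 CPM minus the mean of the 7 samples (vertical axis) for summed adult globins, 3 lists of red cell genes (mean over the list), and genes under 1000 exonic bases (median), by sample. In WT replicate 1 the globins (−0.97), short genes (−0.71), and the red cell cytosol list (−0.69) are low while the red cell membrane list (−0.05) is not, and in Trpc1-/- replicate 3 the globins (0.72) stand above all lists.

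The Trpc1-/- samples also differed from one another in which red cell genes were highest. The globins were highest in Trpc1-/- replicate 3, at 0.72 above the mean of the 7 samples on the log2 scale, and lay at 0.38 in replicate 1. The membrane list was highest in replicate 1, at 0.31, with 0.16 in replicate 3. The heme synthesis list took the same order, with 0.34 in replicate 1 and 0.21 in replicate 3. Muscle markers varied more than any of these within a genotype: the 4 skeletal muscle genes, Ckm, Acta1, Myh4, and Tnnt3, deviated by 1.77 in WT replicate 1 and −2.59 in WT replicate 4, and by 0.11 to 1.57 in Trpc1-/- samples. Their median logFC was 0.70, close to that of the globins, and 2.11 without WT replicate 1. The 4 adipocyte markers had a median logFC of 0.45, and 0.58 without that sample, and DESeq2 called 1 of them, Adipoq (logFC 0.33, adjusted P = 0.0231). The chondrocyte list lay between 0.04 and 0.33 in WT, and at −0.59, 0.10, and −0.44 in Trpc1-/- replicates 1 to 3. All 7 osteoblast and osteocyte markers were lower in Trpc1-/- samples, at a median logFC of −0.29, and −0.33 without WT replicate 1. DESeq2 called 0 of these 7, and 1.79% of all genes tested. Markers of other blood lineages had a median logFC of 0.39 for 6 B cell genes, 0.51 for 4 T cell genes, and 0.06 for 6 megakaryocyte genes. Without WT replicate 1, these were 0.22, 0.42, and −0.04. The part of these lists in the globin difference was not tested.

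Genes that act with the globins were described by lists, beside the median logFC of −0.0088 over all genes tested. The lists were written with earlier results of these data known, so their counts are a description and test nothing. In what follows, the logFC is that of edgeR and CPM are by library totals alone. No gene of these lists passed the edgeR test with all 7 samples. For comparison with each list, 7904 of all 16429 genes tested were higher in Trpc1-/- samples, and DESeq2 called 1.79%. Every Trpc1-/- sample exceeded every WT sample for 6 of 8 heme synthesis, 9 of 15 membrane, and 7 of 8 cytosol genes. The same held for 6 of 8 late maturation genes, 5 of 10 clearance genes, 4 of 9 transport genes, and 2 of 11 regulators. For surplus chain handling it was 2 of 5, for other globin genes 2 of 7, and for alpha-globin neighbours 0 of 4. Among cell type markers, 3 of 6 B cell and 2 of 4 T cell genes showed this pattern. So did 1 of 6 macrophage and 1 of 4 adipocyte genes, and no other marker. Over all genes, 7.15% showed it. Heme synthesis makes the group that binds oxygen, and all 8 of its genes had a higher level in Trpc1-/- samples. Their median logFC was 0.36. DESeq2 called 3 of the 8. Alas2, the erythroid enzyme of the first step, had 368, 606, 640, and 542 CPM in WT replicates 1 to 4 and 931, 687, and 760 CPM in Trpc1-/- replicates 1 to 3. Its logFC was 0.62 (SE 0.16, DESeq2 adjusted P = 0.0164). Fech, which inserts iron into the ring, had a logFC of 0.39 (SE 0.09, DESeq2 adjusted P = 4.22e-05), and Alad, the enzyme of the second step, of 0.42 (DESeq2 adjusted P = 0.0437).

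Of 9 genes for iron and heme transport in erythroblasts, 8 were higher in Trpc1-/- samples and the median logFC was 0.22. DESeq2 called only Glrx5, needed for iron-sulfur clusters (logFC 0.37, adjusted P = 0.0292), while the transferrin receptor Tfrc had a logFC of 0.14 (DESeq2 adjusted P = 0.556). Of 11 regulators of globin genes, 10 were higher, with a median logFC of 0.18, which was 0.07 without Trpc1-/- replicate 1 and 0.29 without Trpc1-/- replicate 2. DESeq2 called 1, Tal1 (logFC 0.34, adjusted P = 0.0412), which encodes an erythroid transcription factor. Gata1 and Klf1, transcription factors that act on globin genes, had a logFC of 0.29 and 0.48 (DESeq2 adjusted P = 0.520 and 0.278). Bcl11a, a repressor of embryonic and fetal globin genes, had a logFC of 0.0038.

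Handling of alpha-globin mRNA and surplus chains was represented by 5 genes, of which 4 were higher, with a median logFC of 0.19, which was 0.29 without Trpc1-/- replicate 1 and 0.09 without Trpc1-/- replicate 2. Ube2o, a ubiquitin ligase that marks unpaired alpha chains for degradation, had 166, 163, 158, and 162 CPM in WT and 206, 194, and 187 CPM in Trpc1-/- replicates. Unlike the globins, it was not low in WT replicate 1. Its logFC was 0.32 (SE 0.09, DESeq2 adjusted P = 0.0364), a DESeq2 call that held in 1 of 7 fits that each left out 1 sample. Without WT replicate 1, edgeR called Ube2o alone of all lists, cell type markers included (logFC 0.39, adjusted P = 0.0396). That fit called 52 of all 16242 genes tested. Eif2ak1, the kinase that slows globin translation when heme is short, had a logFC of 0.24 (DESeq2 adjusted P = 0.120). Pcbp1 and Pcbp2, which bind alpha-globin mRNA, had a logFC of 0.19 and 0.10 with DESeq2 adjusted P values of 0.602 and 0.899.

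All 15 red cell membrane genes were higher in Trpc1-/- samples (median logFC 0.30), and DESeq2 called 4, beside 1.79% of all genes tested. Among them were Slc4a1 (logFC 0.34), Epb41, which encodes the skeletal protein 4.1 (0.45), and Rhag, the Rh-associated glycoprotein (0.43), with DESeq2 adjusted P values of 0.00505, 4.16e-06, and 0.000215. Of 8 genes of the red cell cytosol, 7 were higher, the median logFC was 0.50, and DESeq2 called 2. Car1, carbonic anhydrase 1, had 46.4, 120, 129, and 108 CPM in WT and 240, 164, and 183 CPM in Trpc1-/- replicates, with a logFC of 1.03 (SE 0.28, DESeq2 adjusted P = 0.0205). Bpgm, which makes the phosphate ester that lowers the oxygen affinity of hemoglobin, had a logFC of 0.71 (SE 0.16, DESeq2 adjusted P = 0.00347). Of 8 genes of late erythroid maturation, all were higher, with a median logFC of 0.34, and DESeq2 called 4. One was Bnip3l, required for clearance of mitochondria from reticulocytes (logFC 0.49, adjusted P = 0.00407). Among the DESeq2 calls in the adult globins and the lists of globin, red cell, and heme genes, 21 in all, those of Fech, Epb41, and Rhag held in all 7 fits that each left out 1 sample. The other 18 were lost in at least 1 of them.

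Genes that clear hemoglobin and heme formed a further list, which is not confined to macrophages. Of 10 tested, 9 were higher in Trpc1-/- samples (median logFC 0.31), and DESeq2 called 2. Hmox1, the enzyme that opens the heme ring, had 43.2, 83.1, 88.4, and 61.7 CPM in WT and 127, 98.3, and 125 CPM in Trpc1-/- replicates. WT replicate 1 was lowest here too, and the groups did not overlap. Its logFC was 0.83 (SE 0.21, DESeq2 adjusted P = 0.0153), and that of the iron exporter Slc40a1 was 0.50 (DESeq2 adjusted P = 0.0151). Cd163, the receptor for hemoglobin bound to haptoglobin, had a logFC of 0.42 (DESeq2 adjusted P = 0.230). The 6 general macrophage markers, such as Adgre1 and Csf1r, had a median logFC of 0.23, which was 0.086 without WT replicate 1.

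**Figure D5:**
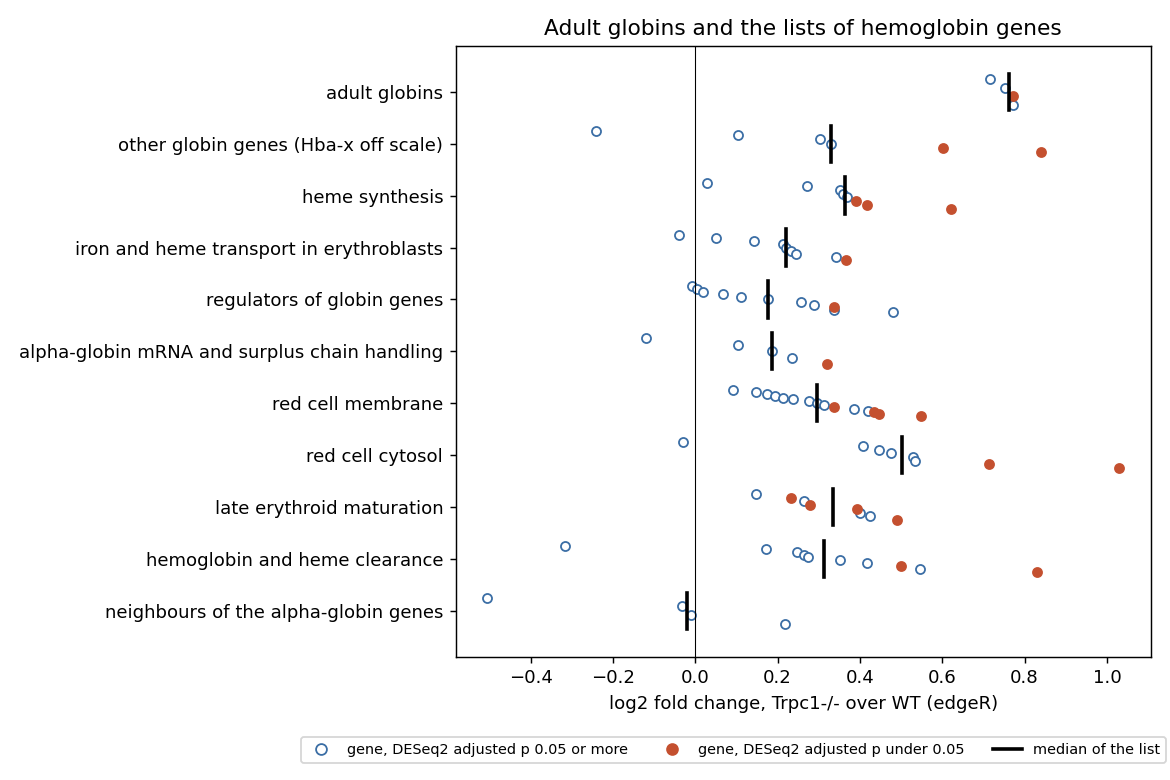
edgeR logFC (horizontal axis, Trpc1-/- over WT) of each tested gene in the adult globin group and in 10 lists, with filled points for genes called by DESeq2 and a bar at the median of each list. The adult globins (median 0.76) lie to the right of all list medians, followed by the red cell cytosol (0.50), while the neighbours of the alpha-globin genes lie around 0 (−0.02). Hba-x is off the scale.

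Other globin genes were far less abundant, and they share sequence with the adult genes to an unknown extent here. Hbq1a and Hbq1b, theta-globin genes that lie beside the adult alpha genes on chromosome 11, had 2.37 ± 0.0641 and 8.40 ± 1.31 CPM in WT, and 4.06 ± 0.924 and 12.2 ± 1.99 CPM in the knockouts (mean ± SD of 4 and 3 samples). Their logFC was 0.84 and 0.60 (DESeq2 adjusted P = 0.0112 and 0.0162), with groups that did not overlap. The embryonic alpha-like gene Hba-x had 5, 62, 10, and 12 counts in WT and 317, 0, and 5992 counts in Trpc1-/- replicates. A single sample, Trpc1-/- replicate 3, held nearly all of its counts, and the range within Trpc1-/- samples enclosed that of WT. The embryonic beta-like genes Hbb-y and Hbb-bh1 had between 15 and 212 counts in each sample, with a logFC of 0.10 and 0.30 and DESeq2 adjusted P values of 0.966 and 0.871.

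The neighbours of the alpha-globin genes on chromosome 11 that are not globin genes had a logFC near or below 0 in most cases. Of 4 tested, 1 was higher in Trpc1-/- samples, and their median logFC was −0.02, or 0.04 without WT replicate 1. Nprl3, whose introns hold enhancers of the alpha-globin genes, had a logFC of −0.03 (SE 0.14, DESeq2 adjusted P = 0.961), and Mpg of −0.0094. Rhbdf1 had 20.1, 18.1, 16.7, and 13.2 CPM in WT and 11.7, 12.3, and 10.9 CPM in Trpc1-/- replicates, with a logFC of −0.50 (SE 0.17, DESeq2 adjusted P = 0.185).

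The genes whose level was most like that of the summed adult globins were ranked by Pearson's correlation of log2 CPM over the 7 samples, as a description. The 7 points share their libraries, and WT replicate 1 is the one farthest from their mean in the globins. Of 9747 genes ranked, the 10 highest were H1f1, H2bu2, H2aw, Mgst3, Spcs3, Cd86, Hspe1, Trip13, Prps1, and Sec61g, with r between 0.985 and 0.995. The first 3 encode histones, Hspe1 a mitochondrial chaperonin, and Spcs3 and Sec61g proteins of the endoplasmic reticulum. None belonged to a list used here. Their exonic length had a median of 2070 bases, against 5056 for the protein-coding genes at that level. The median r with the globins was 0.86 among genes under 1000 bases and −0.25 among genes of 4000 bases or more. Among listed genes, Spic, a transcription factor of the macrophages that recycle red cells, ranked highest, at 21, with r = 0.980, followed by Hmox1, at 56, with r = 0.972. Alas2 came at rank 172.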

How the data were processed

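By the labels, RNA was taken from femoral and tibial cartilage of 7 samples after DMM, and the Methods also list subchondral bone. The authors depleted ribosomal RNA, made stranded libraries, trimmed reads with Cutadapt 2.5, aligned them to GRCm38 with HISAT2 2.1.0, and estimated coverage with StringTie 2.0.3. They deposited estimated counts per gene, derived from that coverage, not normalized and already whole numbers, so rounding changed none. How reads shared between paralogs were assigned was set at that point.

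Groups follow the labels. The genes tested, 16429, had more than 1 CPM in at least 2 samples. The main test was the quasi-likelihood test of edgeR 4.0.16 (R 4.3.3, TMM, genotype alone, Benjamini-Hochberg adjustment, threshold 0.05). The common dispersion was 0.0424. Standard errors of the logFC follow from its F value. DESeq2 1.42.0, the method of the study, and limma-voom (limma 3.58.1) were alternatives, with 2 other scalings, a total without the globins, 2 other filters, the replicate block, the range of the number in the library code, and each sample left out. Ratios within a sample were tested with exact two-sided permutation tests. The fits were tested on simulated data.

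Positions, exons, and coding sequences came from GENCODE M21, in which 55141 of the 55401 identifiers were found, and promoters from RefSeq. A transcript was cut into windows of 75 bases to find those shared. Genes named are the globins, members of the lists, and the 10 genes most like the globins with a mean of at least 10 CPM. The globins and the lists were chosen with earlier results of these data known. Nothing in the labels says whether the pools of a group came from separate litters or days, so P values measure the spread between these pools. No pair of samples held identical values. A level of 3 counts, taken as the floor, correspond to between 0.0254 and 0.0575 CPM, for counting error only.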

Additional observations from a re-analysis of the deposited data

Results flagged for a closer look

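Among WT samples, 34 quantities were checked for a sample that stood far from the other 3, and 5 were flagged by Dixon's test at its 95% level, which flags about 1 in 20 such groups by chance. The alpha to beta ratio of counts was 0.830 in WT replicate 4, below the other WT samples. The share of counts on genes of the mitochondrial genome was 22.5% in WT replicate 1, above the others. By library totals alone, Hbq1b, at 6.44 CPM, and Rhag, at 63.8 CPM, were each low in WT replicate 1. These flags were not checked with TMM scaling, whose factor was lowest in that sample (0.912). Hba-x, at 0.621 CPM, was high in WT replicate 2. The 5992 counts of Hba-x in Trpc1-/- replicate 3 lie in a group of 3, which this test does not cover.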

How the results depend on the processing

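The direction of the globin difference was the same in all alternatives run, from 0.54 to 0.99 in logFC over the 4 genes. edgeR called none of the 4 under any setting, with 0 called for each sample left out. limma-voom, run only on all 7 samples, also called none of them. By edgeR, 1643 genes had an unadjusted P under 0.05, while DESeq2 called 294 genes, among them 1 of the 4 globins, and limma-voom called 1 gene, which was not a globin. Without WT replicate 1, edgeR called 52 genes and DESeq2 892, and DESeq2 called between 37 and 371 with any other sample left out. In fits chosen after the data were seen, DESeq2 called 3 of the 4 in samples with the lower code numbers (summed logFC 0.92 and 0.99). Over all genes, that fit called 181 of 16203. With the replicate block, DESeq2 called 2 of the 4 (0.84 for summed beta-globin), and 54 of all 16303 genes. It called between 0 and 4 of the globins with a sample left out. There, edgeR and DESeq2 together gave a summed logFC of 0.56 to 0.88 for alpha-globin and 0.60 to 0.90 for beta-globin. The replicate block in edgeR gave a logFC between 0.76 and 0.83 (adjusted P = 0.768), with 972 genes at an unadjusted P under 0.05. The numbers do not pair the samples, which are different pools of knees, with correlations of −0.36, −0.21, and −0.05 within a number. Scaling by library totals alone moved the median logFC of all genes to −0.067 and those of the 4 globins to between 0.63 and 0.69.

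The Hbb-bt to Hbb-bs difference was reversed without WT replicate 1 (0.015), without WT replicate 4 (0.0017), without Trpc1-/- replicate 3 (0.021), and with the replicate block (0.0017), all within the spread of replicates. The cause was not tested. With a sample left out, its range was −0.019 to 0.021, that of alpha to beta −0.065 to −0.025, of Hba-a2 to Hba-a1 0.018 to 0.051, of alpha-globin to membrane genes 0.23 to 0.60, and of beta-globin to membrane genes 0.26 to 0.63. In place of no calls by edgeR, DESeq2 called 2 other globin genes, 3 of heme synthesis, 1 each of iron transport, regulators, and surplus chain handling, 4 of the membrane, 2 of the cytosol, 4 of late maturation, and 2 of clearance. Its share over all genes tested was 1.79%. The median logFC of the other globin genes lay between −0.22 and 0.66 with a sample left out, that of the regulators between 0.07 and 0.29, and that of surplus chain handling between 0.09 and 0.29. For surplus chain handling, edgeR called between 0 and 1 genes with a sample left out. Spearman's correlation placed 8 of the 10 genes most like the globins in its own first 10, with 39 genes tied at the top. Both planned ratios of Ahsp were not run. With 3 and 4 samples, a permutation P below 0.0571 cannot be reached, while each globin gene had at least 131379 counts in every sample.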
